A study of Mus musculus with 10 samples.

Results

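The nuclear genes for the subunits of the mitochondrial respiratory chain were examined across mouse embryonic stem cell (ESC) lines. Members were the protein-coding genes whose symbol names a subunit of NADH dehydrogenase (complex I), succinate dehydrogenase (complex II), the cytochrome bc1 complex (complex III), cytochrome c oxidase (complex IV) or ATP synthase (complex V). Of 83 genes that matched by symbol, 82 had a mean normalized value of at least 10 over the lines and were kept, out of 14354 genes tested by the same limit and 20206 genes listed. The members comprised 37 genes of complex I, 4 of complex II, 8 of complex III, 16 of complex IV and 17 of complex V. The gene below the limit was Cox6a2, a form of a complex IV subunit known from heart and skeletal muscle, with a mean of 1.68. The symbol rule leaves out a few subunits with other names, among them Cyc1 (cytochrome c1) and Ndufab1, and Cox8b was not analysed here. It also takes in genes that are counted with a complex by name only. Ndufa4 is now placed with complex IV, Cox7a2l is known for its part in assembling complexes into supercomplexes, and Atp5s is not a structural subunit.

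Complexes I and II pass electrons from NADH and succinate to ubiquinone, complex III passes them on to cytochrome c, and complex IV passes them to oxygen. Complexes I, III and IV pump protons as they do so, and complex V uses the resulting gradient to make ATP. Most subunits are encoded in the nucleus and imported, a small set is encoded in mitochondrial DNA, and complex II is encoded wholly in the nucleus. Pluripotent cells in culture are known for drawing much of their ATP from glycolysis.

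RNA was sequenced from 10 wild-type ESC lines, each taken as 1 replicate. Of these lines, 5 came from blastocysts of mothers on a low protein diet with 9% casein (LPD) and 5 from mothers on a normal protein diet with 18% casein (NPD). Mothers were C57Bl/6 females of 7 to 9 weeks, and the diet was given until embryonic day 3.5, after which all embryos and lines were cultured alike. By the study's methods the lines were male, each came from another mother, and they were derived on a layer of mouse embryonic fibroblasts and grown free of fibroblasts for RNA. LPD lines are numbered 1, 4, 6, 20 and 40 and NPD lines 8, 15, 21, 36 and 51. A p-value here thus measures a diet against the spread between lines, and each line grew from 1 embryo.

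The deposited value is an estimated count per gene, scaled between lines, and is called the normalized value here. Lines summed to between 16398672 and 18324979, but the value that 1 read was worth differed. It lay between 0.732 and 0.842 in the NPD lines and in LPD lines 1 and 20, and was 2.90, 1.38 and 1.58 in LPD lines 4, 6 and 40, so low members were counted less finely there. All 9 markers of ES cells were present in every line, with summed values of 89901 to 116148. Markers of fibroblasts summed to between 307 and 3251 in LPD lines and between 394 and 5484 in NPD lines. Those of primitive endoderm summed to between 614 and 4175 in LPD lines and between 448 and 4877 in NPD lines. Trophectoderm markers summed to between 332 and 1051 in LPD lines and between 304 and 564 in NPD lines. NPD line 15 had a median log2 deviation of 0.49 over 334 X-linked genes and -7.05 over 7 Y-linked genes. LPD line 4 had -2.76 over the Y-linked genes and 0.00 over the X-linked genes. These values do not match a male line with its Y chromosome. The diet fit was also run without each of these lines and without both, and some of those results are given below.

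Promoter windows from RefSeq, on GRCm38.p6, were found for 67 of the 82 members, each holding 250 bases before and 50 after an annotated start. Motifs of factors known to bind promoters of respiratory chain genes were searched on both strands. CGCATGCG, for NRF1, was in the windows of 9 members (13.4%), against 2.77% of 17492 protein-coding genes. CCGGAAG, for ETS factors such as GABPA, was in those of 16 members (23.9%), against 12.9%. AANATGGCG, for YY1, was in those of 10 members (14.9%), against 3.64%. The last 3 letters of the ETS motif can be the first 3 of the YY1 motif, so a stretch may hold both, and the NRF1 motif reads the same on either strand. The 17492 genes were taken without regard to their values in these lines, and no share among expressed genes was taken. These are matches of letters and were not tested for binding. The following stretches hold a motif, lie before the start and overlap no annotated exon. For each motif and complex, the stretch is from the member of highest mean value that has one, and complexes without one are not shown. They are read 5′ to 3′ on the strand of the gene, with the motif in capitals.

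Ndufb6, complex I, chr4:40279627-40279671, minus strand, ETS motif: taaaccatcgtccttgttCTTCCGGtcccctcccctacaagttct

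Uqcr11, complex III, chr10:80406861-80406907, minus strand, ETS motif: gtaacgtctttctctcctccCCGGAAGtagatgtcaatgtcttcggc

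Atp5e, complex V, chr2:174464177-174464223, minus strand, ETS motif: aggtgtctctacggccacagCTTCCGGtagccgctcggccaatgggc

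Atp5l, complex V, chr9:44920956-44920992, minus strand, NRF1 motif: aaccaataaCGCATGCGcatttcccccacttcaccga

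In Ndufb6 and Atp5e the ETS motif lies on the opposite strand and reads as CTTCCGG. It starts 232 bases before the start of Ndufb6, 66 before that of Uqcr11 and 102 before that of Atp5e, and the NRF1 motif starts 241 before that of Atp5l.

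Levels of the subunits were first set side by side as the mean normalized value per kilobase of the longest annotated transcript. Complex I had a median of 1415 over its 37 genes, complex II 1589, complex III 2286, complex IV 2837 and complex V 2300. Atp5b, the catalytic beta subunit of ATP synthase, was at 19545 per kilobase. Cox4i1 and Cox6a1, nuclear subunits of cytochrome c oxidase, were at 14289 and 13089. The lowest member of complex V, Atp5s, was at 87.6 per kilobase, and that of complex I, Ndufa4l2, at 67.5. Thus the range within complexes IV and V was far wider than the range between the medians of the 5 complexes.

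Several subunits of complex IV and the c subunit of ATP synthase have paralogues, forms that are known to be used in other tissues or conditions. Cox4i2, a form linked to low oxygen and to the lung, stood at 0.12% of the level of Cox4i1 per kilobase. Cox7b2 stood at 0.90% of Cox7b and Cox8c at 0.24% of Cox8a, both being forms known mainly from testis. Cox7a1, the heart and muscle form, was at 16.1% of Cox7a2, with a range over the lines of 10.3% to 21.2%. Cox6b2, known as a testis form, was the exception among these, at 77.7% of Cox6b1 with a range of 51.9% to 99.0%. Its normalized value was 2310, 1641, 1759, 1164 and 2389 in LPD lines 1, 4, 6, 20 and 40 and 1633, 1935, 2133, 1344 and 1571 in NPD lines 8, 15, 21, 36 and 51. So Cox6b2 came closest to the general form in LPD line 1 and was lowest in LPD line 20, and the diets overlapped.

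The c subunit, which forms the rotor ring, is made from 3 genes whose mature proteins are the same. Atp5g3 was the highest per kilobase at 6475, with Atp5g1 at 12.1% and Atp5g2 at 23.3% of it. The share of Atp5g1 is sensitive to the length used, since its longest transcript spans 4.71 kb, and rose to 17.7% with the median length of its coding transcripts. Atp5g2 is uncertain for another reason. An annotated processed pseudogene, Gm10175, is identical to a whole transcript of Atp5g2 and had a mean of 5387, against 1124 for Atp5g2, so reads may have been divided between them. Ndufb4, a complex I subunit, had a mean of 689 and its pseudogene Ndufb4c 877. Atp5a1, Ndufs3 and Uqcrc1 each shared all values with a second identifier that is not in the annotation used here.

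The first question was whether maternal diet altered the subunits. No member passed limma's test between LPD and NPD lines after Benjamini-Hochberg adjustment over the 14354 genes, where the adjusted p of members ran from 0.994 to 0.999. Of all genes tested 0 passed at 0.1 (0%), so the members were not set apart in this. At an unadjusted p under 0.05 by limma, 0 members were higher and 0 were lower in LPD lines, while 408 of all genes (2.84%) were higher and 313 (2.18%) lower. In none of the 82 members were the 5 LPD and 5 NPD lines free of overlap, which was so for 146 of all genes (1.02%). The 95% confidence interval of the log2 fold change lay within 0.5 either way for 76 members, against 7060 of the 14354 genes. The median standard error was 0.11 over members and 0.17 over all genes. The members outside that bound were Ndufa4l2, Cox4i2, Cox7a1, Cox7b2, Cox8c and Atp5s, each among the lowest of its complex.

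Point estimates nevertheless leaned to one side. The log2 fold change was above 0 in LPD lines for 70 of 82 members, against 7247 of all genes (50.5%), with a median of 0.08 against 0.00 for all genes. By complex, 30 of 37 members of complex I were above 0 with a median of 0.08, 3 of 4 of complex II with 0.06, 8 of 8 of complex III with 0.09, 13 of 16 of complex IV with 0.10 and 16 of 17 of complex V with 0.06. None of these single values passed a test, and the members do not vary independently. Among 684 other genes whose longest transcript is under 1 kb, as it is for many members, 409 (59.8%) were above 0, with a median of 0.04. After a trend with transcript length was removed from each line, 57 members were above 0 with a median of 0.04, against 49.7% of all genes. After rescaling to the same total 61 were, with a median of 0.05, against 42.2% of all genes, whose median was -0.03. The size of the lean also depended on several lines. Without LPD line 40, 47 members were above 0 and the median was 0.02, and that of complex I was -0.01. Without NPD line 36 the median of the members was 0.03, without NPD line 8 it was 0.05, and without NPD line 21 it was 0.12.

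**Figure D1:**
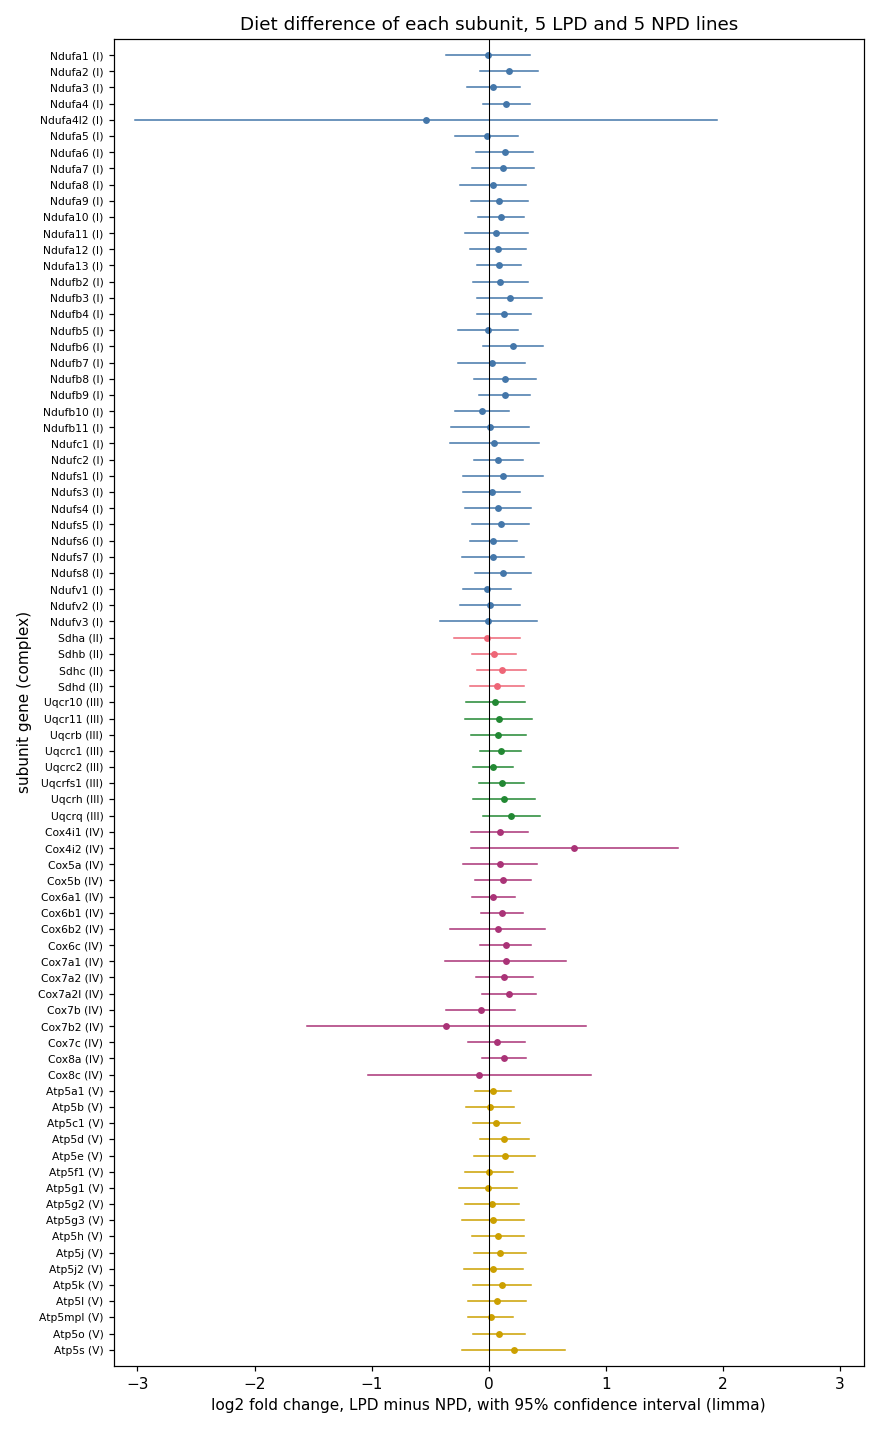
Log2 fold change of 81 of the 82 subunit genes between LPD and NPD lines (x axis, LPD minus NPD on the log2(value + 1) scale) with its 95% confidence interval from limma, 5 lines per diet, coloured and ordered by complex. Points lie above 0 for 69 of the 81 genes drawn, every interval drawn covers 0, and the widest interval is that of Ndufa4l2.

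The member with the smallest limma p in each complex is given with its values in every line. Ndufb6, an accessory subunit of the membrane arm of complex I, was at 2178, 1837, 1771, 1979 and 2363 in LPD lines 1, 4, 6, 20 and 40 and at 1674, 1981, 1905, 1358 and 1896 in NPD lines 8, 15, 21, 36 and 51. LPD lines 1 and 40 were above all NPD lines, but the other LPD lines fell among them. Its log2 fold change was 0.21 ± 0.12 (SE, n = 5 and 5), with an exact two-sided permutation p of 0.151 and a limma adjusted p of 0.994. Sdhc, which anchors complex II in the membrane, was at 2212, 1697, 1851, 1909 and 2238 in the LPD lines and at 1795, 1829, 1922, 1627 and 1968 in the NPD lines, in the same order. Again LPD lines 1 and 40 alone lay above the NPD lines, and the log2 fold change was 0.11 ± 0.10 (exact permutation p = 0.238).

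Uqcrq, a small subunit of complex III, was at 3329, 3470, 3180, 3670 and 4007 in the LPD lines and at 2719, 2981, 3881, 2635 and 3360 in the NPD lines. LPD values were all above those of NPD lines 8, 15 and 36, while NPD line 21 exceeded every LPD line but line 40. The log2 fold change was 0.19 ± 0.11 (exact permutation p = 0.151). Atp5d, the delta subunit of the central stalk of ATP synthase, was at 3232, 2970, 3216, 3545 and 4028 in the LPD lines and at 2803, 3144, 3402, 2834 and 3257 in the NPD lines. LPD lines 20 and 40 lay above the NPD lines, and the log2 fold change was 0.13 ± 0.10 (exact permutation p = 0.198).

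Cox4i2 had the smallest limma p of all members. Its normalized value was 20.4, 14.5, 8.30, 13.02 and 25.2 in LPD lines 1, 4, 6, 20 and 40 and 7.01, 6.84, 14.3, 5.85 and 12.6 in NPD lines 8, 15, 21, 36 and 51. LPD lines 1, 4 and 40 lay above all NPD lines, LPD lines 6 and 20 did not, and these values are worth few reads, as 1 read was worth 2.90 in LPD line 4. The log2 fold change was 0.73 ± 0.41, with a limma adjusted p of 0.994 and an exact two-sided permutation p of 0.0556. With limma fitted without a trend the number of members at an unadjusted p under 0.05 went from 0 to 1, which was Cox4i2, and without LPD line 6 it was also Cox4i2. Without NPD line 15 it was Cox7a2l and without NPD line 21 Uqcrq. All of them were higher in LPD lines, and none passed adjustment.

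**Figure D2:**
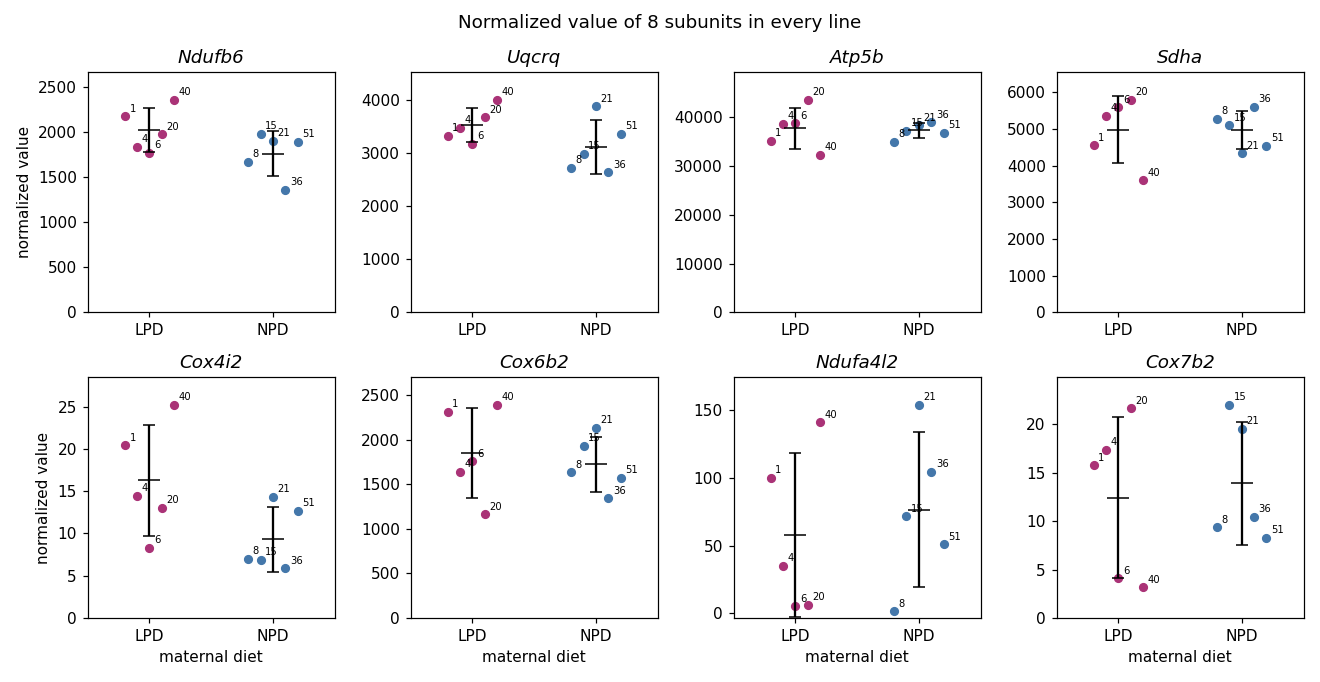
Normalized value (y axis, from 0 upward except that the error bar of Ndufa4l2 reaches below it) of 8 subunits in each LPD and NPD line, with line numbers beside the points and the mean ± SD of 5 lines per diet as black bars. The diets overlap in all 8 panels, and LPD line 40 is the highest LPD line for Ndufb6, Uqcrq, Cox4i2, Cox6b2 and Ndufa4l2 but the lowest for Atp5b, Sdha and Cox7b2.

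Estimates were small among 17 genes on a list of core subunits drawn up for naming, as among the other members. The list is not complete and lacks for example Ndufs7, Ndufs8 and Ndufv2. For complex IV it holds Cox4i1, Cox5a and Cox5b, which are not the catalytic subunits. Of the 17 genes, 15 had a log2 fold change above 0, and their median was 0.06. Among the 65 other members 55 were above 0, with a median of 0.08. Sdha, the flavoprotein of succinate dehydrogenase, was at -0.01 ± 0.13, and Ndufs1, which carries iron-sulfur clusters of complex I, at 0.12 ± 0.16. Cox4i1 was at 0.09 ± 0.11, Atp5a1, the alpha subunit of ATP synthase, at 0.03 ± 0.07, and Atp5b at 0.01 ± 0.09. Atp5a1 and Uqcrc2 were among the members with the smallest spread over the 10 lines, with SDs of 0.07 and 0.09 on the log2 scale. The median SD over members was 0.18, against 0.27 over all genes.

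The members varied between lines of the same diet in a shared way. In each line the log2(value + 1) of every gene was set against its median over the 10 lines. The median of this deviation over the 82 members was 0.31 in LPD line 40 and 0.18 in NPD line 21, and it was -0.17 in NPD line 8 and -0.16 in NPD line 36. In the other lines it was 0.05, -0.07, -0.04 and 0.03 for LPD lines 1, 4, 6 and 20 and -0.01 and 0.02 for NPD lines 15 and 51. LPD line 40 had 76 members above their median and NPD line 21 had 78, while NPD line 8 had 3 and NPD line 36 had 9. Of all 14354 genes, 7212, 7261, 7137 and 7112 were above their median in these 4 lines, in the same order. Of 684 other genes with a longest transcript under 1 kb, 484, 467, 217 and 215 were, so short genes leaned the same way. LPD line 40 was the highest of all lines for 60 members, and NPD line 36 or NPD line 8 was the lowest for 32 and 26. How many of all genes had their extremes in these lines was not counted. High and low lines thus occurred within the NPD group alone, and the range between lines was several times the diet estimate.

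**Figure D3:**
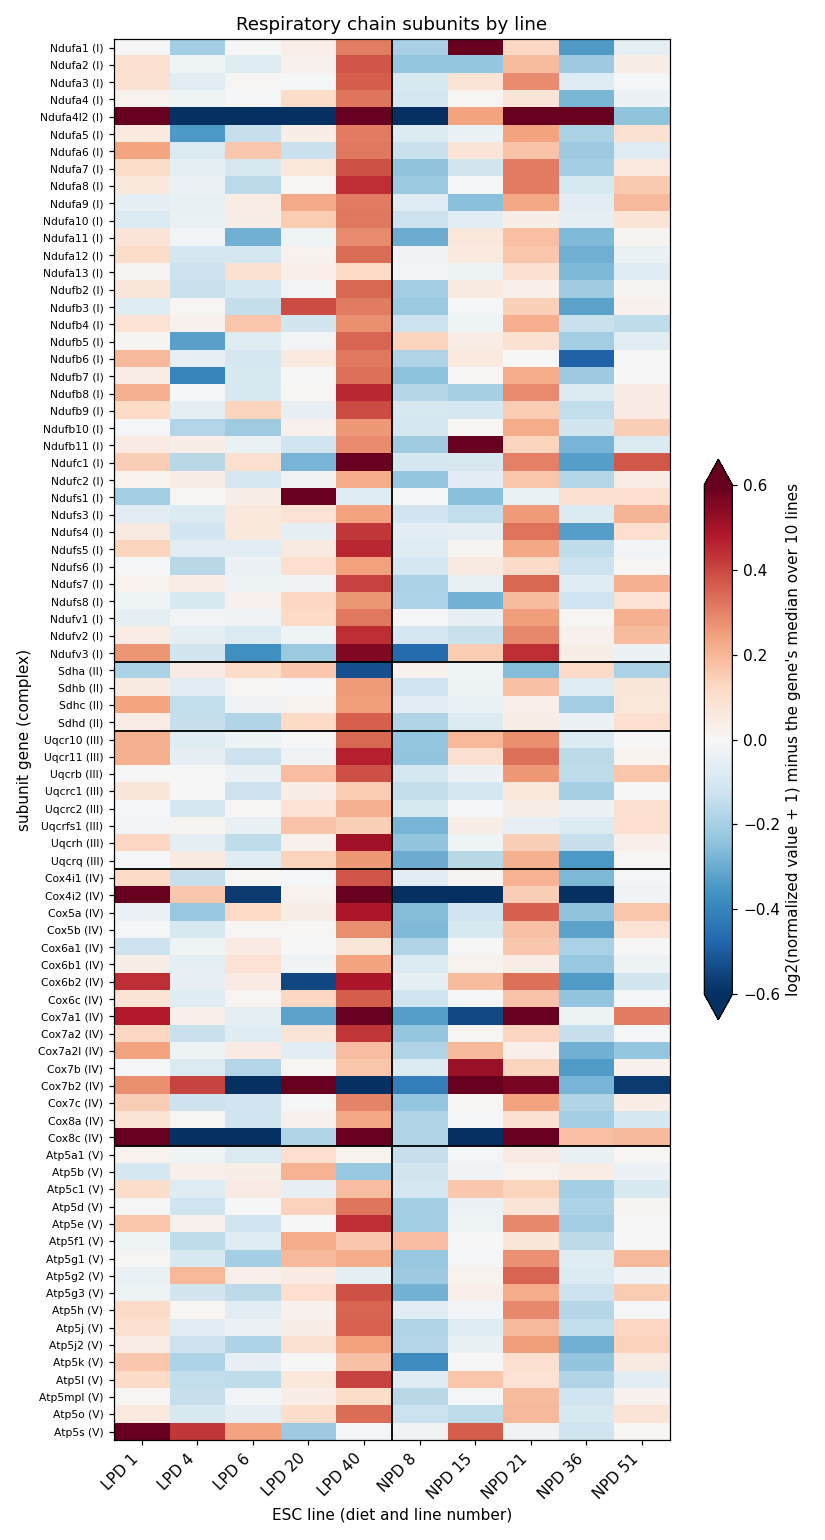
Deviation of 81 of the 82 subunit genes (rows, grouped by complex with black lines between) from the gene's own median over the 10 lines (columns, LPD left and NPD right), as log2(normalized value + 1), with colours saturated beyond 0.6 either way. LPD line 40 and NPD line 21 are red and NPD lines 8 and 36 blue over most rows, and Sdha is the one row with the reverse in all 4.

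The pattern ran through all 5 complexes. Taking the 2 lines with the highest and the 2 with the lowest median, which were chosen from these values, 67 of 82 members were above their median in both high lines and below it in both low lines. Among all genes 2277 (15.9%) were. By complex, 30 of 37 members of complex I did so, 3 of 4 of complex II, 7 of 8 of complex III, 14 of 16 of complex IV and 13 of 17 of complex V. Complex I by itself ranks the same lines highest and lowest, and 37 of the 45 members of complexes II to V followed them. The complexes vary together, so this is not a separate check. The share among genes of like transcript length was not taken. The high lines exceeded the low lines by a median of 1.32-fold over the members, from 1.22-fold in complex II to 1.38-fold in complexes III and IV.

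Cox5a, a nuclear subunit on the matrix side of complex IV, was at 3933, 3437, 4377, 4126 and 5635 in LPD lines 1, 4, 6, 20 and 40 and at 3358, 3712, 5160, 3406 and 4515 in NPD lines 8, 15, 21, 36 and 51. Its high lines were 1.59-fold above its low lines. Ndufc1, an accessory membrane subunit of complex I, was at 961, 773, 926, 714 and 1306 in the LPD lines and at 808, 812, 1068, 690 and 1122 in the NPD lines. NPD line 51 was also high for this gene. Uqcr11, a small subunit of complex III, ran from 1664 in NPD line 8 to 2706 in LPD line 40, and Atp5e, the epsilon subunit of the central stalk, from 2343 in NPD line 36 to 3673 in LPD line 40. Atp5l, the g subunit in the membrane part of ATP synthase, ran from 1834 in NPD line 36 to 2752 in LPD line 40. Its longest annotated transcript spans 6.31 kb, but its longest coding transcript is far shorter. Its level per kilobase was 336 by the first length and 3902 by the second.

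Sdha was the only member with the reverse in all 4 of these lines. It was at 4551, 5363, 5596, 5803 and 3596 in LPD lines 1, 4, 6, 20 and 40 and at 5272, 5097, 4335, 5606 and 4540 in NPD lines 8, 15, 21, 36 and 51. Its lowest values were thus in LPD line 40 and NPD line 21, where most other subunits were highest. The other subunits of complex II, Sdhb, Sdhc and Sdhd, were all with the majority. Sdha was also among the reference genes the study used for its quantitative PCR, and it ranged 1.61-fold between lines.

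The other 14 members outside the shared pattern included Ndufa4l2, Ndufb5, Ndufs1, Ndufv1, Ndufv2, Ndufv3, Uqcrfs1, Cox7b2, Cox8c, Atp5b, Atp5f1, Atp5g2 and Atp5s. Ndufs1, Ndufv1 and Ndufv2 carry redox centres of complex I, Uqcrfs1 is the Rieske iron-sulfur protein of complex III, and Atp5b is catalytic. Atp5b was at 35130, 38609, 38715, 43571 and 32281 in the LPD lines and at 34950, 37202, 38311, 38901 and 36804 in the NPD lines. It was highest in LPD line 20 and lowest in LPD line 40.

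Transcript length moved with this pattern. Over 684 other genes with a longest transcript under 1 kb the median deviation was 0.21 in LPD line 40, 0.11 in NPD line 21, -0.10 in NPD line 8 and -0.11 in NPD line 36. Over the 5259 genes with a transcript over 4 kb it was -0.09 in LPD line 40 and 0.05 in NPD line 8. Members had a median longest transcript of 1.00 kb. The 16 members over 2 kb had median deviations of 0.28, 0.08, -0.13 and -0.17 in LPD line 40, NPD line 21, NPD line 8 and NPD line 36. For some of these the longest coding transcript is much shorter, so the class does not hold long coding transcripts only. With coding length the level per kilobase rose from 299 to 2130 for Ndufb7 and from 1708 to 7030 for Cox6c. After a trend with transcript length was removed from each line, the medians over all members were 0.12, 0.06, -0.07 and -0.07, with 68, 66, 16 and 13 members above their median. The high and low lines kept their sides, at less than the original size. The trend was fitted on the longest annotated transcript, so it may misplace members whose coding transcript is shorter. The sum of ES cell markers was also highest in LPD line 40 (116148) and NPD line 21 (115991) and lowest in NPD line 36 (89901) and NPD line 8 (90048). Single markers differed in this. Pou5f1, a large part of the sum, was at 30420, 27675, 22177 and 20172 in these lines. Esrrb and Sox2 were instead higher in NPD line 8 (11480 and 9734) than in LPD line 40 (9968 and 9049) and NPD line 21 (10491 and 9458). Fibroblast markers summed to 388, 622, 3251, 324 and 307 in LPD lines 1, 4, 6, 20 and 40 and to 2059, 5484, 394, 1079 and 433 in NPD lines 8, 15, 21, 36 and 51. These sums were higher in the low lines, NPD lines 8 and 36, than in the high lines, LPD line 40 and NPD line 21. They were highest in NPD line 15 and LPD line 6, where the members were near their median, and about as low in LPD lines 1 and 20 as in the high lines. The part of transcript length and of these markers in the pattern was not tested.

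**Figure D4:**
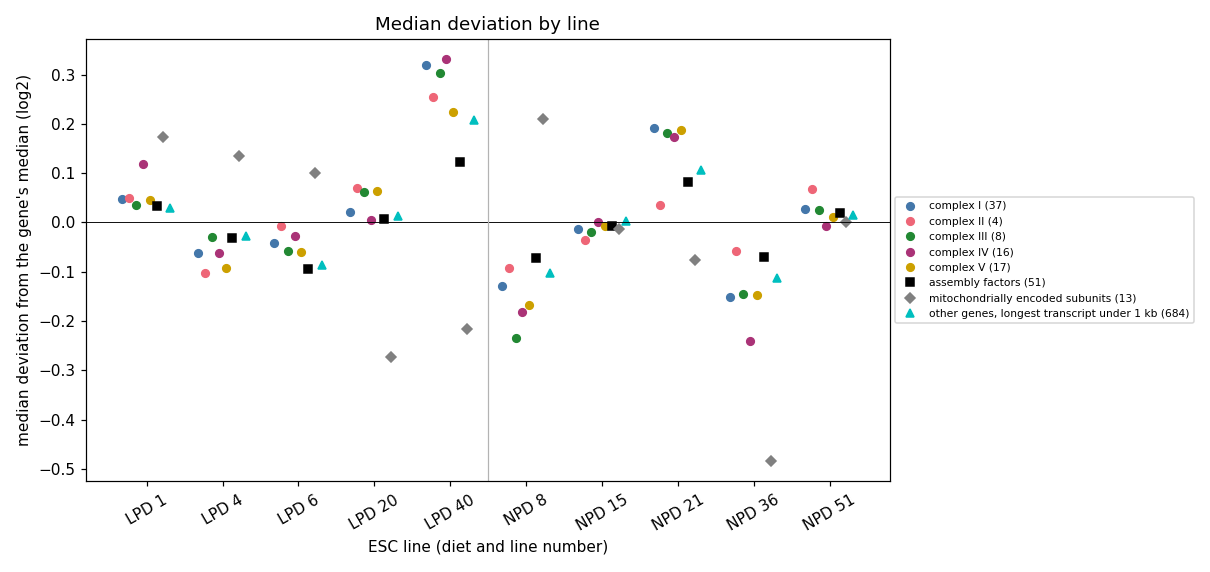
Median deviation (y axis, log2, from each gene's median over 10 lines) of the members of each complex, of assembly factors, of mitochondrially encoded subunits and of other genes with short transcripts, in each ESC line (x axis), with the number of genes in brackets. All 5 complexes are above 0 in LPD line 40 and NPD line 21 and below it in NPD lines 8 and 36, and the mitochondrially encoded subunits lie elsewhere.

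The 13 subunits encoded in mitochondrial DNA, which join the nuclear subunits in complexes I, III, IV and V, did not share this pattern. Their median deviation was 0.17, 0.14, 0.10, -0.27 and -0.22 in LPD lines 1, 4, 6, 20 and 40 and 0.21, -0.01, -0.08, -0.48 and 0.00 in NPD lines 8, 15, 21, 36 and 51. They were therefore low in LPD line 40, where the nuclear subunits were highest, high in NPD line 8, where these were low, and low with them in NPD line 36. None of the 13 was with the shared pattern in all 4 lines. Mt-Co1, the catalytic subunit of complex IV, ranged from 79901 in NPD line 36 to 171141 in NPD line 8. By diet, 9 of 13 had a log2 fold change above 0, with a median of 0.05, and 0 had an unadjusted limma p under 0.05. Libraries were made from RNA selected on poly(A), and how this bears on mitochondrial transcripts in each line was not tested.

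Assembly factors build the complexes without being part of them. Of 51 examined, 26 had a log2 fold change above 0, with a median of 0.00, and 0 had an unadjusted limma p under 0.05. In the shared pattern of the 4 lines were 16 of 51 (31.4%), against 15.9% of all genes. In 1 of them, Cox15, which makes the haem A of complex IV, the diets did not overlap. Cox15 was at 888, 838, 859, 836 and 881 in LPD lines 1, 4, 6, 20 and 40 and at 912, 943, 1023, 900 and 1095 in NPD lines 8, 15, 21, 36 and 51. It was lower in 5 of 5 LPD lines, and its log2 fold change was -0.18 ± 0.08 (limma adjusted p = 0.994). Cox15 was picked out for its lack of overlap, which fixes the exact two-sided permutation p at 0.00794, the smallest that 5 and 5 lines allow. That p therefore adds no support, and 1.02% of all genes showed such a lack of overlap.

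Regulators of the respiratory chain and electron carriers were read from a list of 21 genes, 19 of which were tested. Of these, 13 had a log2 fold change above 0, and the median was 0.01. Nrf1, Gabpa and Yy1, which encode factors for the motifs above, had log2 fold changes of 0.01, 0.06 and 0.10. That of Nrf1 was -0.12 without LPD line 20, where it was highest at 1765. Ppargc1a, the coactivator known for mitochondrial biogenesis in muscle and brown fat, had a mean of 1.19 and was not tested. Pprc1, a related coactivator found in growing cells, was at 2369, 2644, 2564, 3199 and 2245 in the LPD lines and at 3300, 3159, 2884, 3813 and 2979 in the NPD lines. LPD lines 1, 4, 6 and 40 were below all NPD lines and LPD line 20 was among them. Its log2 fold change was -0.31 ± 0.11 (limma adjusted p = 0.839), with an exact two-sided permutation p of 0.0317. It was the 1 gene of the list at an unadjusted p under 0.05 and lower in LPD lines, against 2.18% of all genes, and it did not pass adjustment.

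Ndufa4l2, a relative of Ndufa4 known to be raised by low oxygen, varied most of all members between lines. Its normalized value was 100, 35.0, 5.18, 6.39 and 141 in LPD lines 1, 4, 6, 20 and 40 and 1.46, 71.7, 154, 104 and 51.04 in NPD lines 8, 15, 21, 36 and 51. It was near 0 in NPD line 8 and in LPD lines 6 and 20 and highest in NPD line 21 and LPD line 40, a range of 106-fold with an SD of 2.13 on the log2 scale. The log2 fold change by diet was -0.54 ± 1.15 (exact permutation p = 0.754). Per kilobase it stood at 2.99% of Ndufa4, or at 1.58% with the longest coding transcripts, so even its highest line held a small share. The next in spread were Cox7b2, with an SD of 0.88, and Cox4i2, with 0.65, both at low levels where 1 read weighs more. Cox7b2 was at 15.8, 17.4, 4.11, 21.7 and 3.15 in the LPD lines and 9.38, 22.0, 19.5, 10.4 and 8.30 in the NPD lines, and its log2 fold change was -0.36 ± 0.55.

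The X-linked members were 3 in number. They are Ndufa1 (GRCm38, chrX:37187588-37191163), Ndufb11 (chrX:20615326-20617619) and Cox7b (chrX:106015700-106022450), of which the first is needed for assembly of complex I and the last is a small membrane subunit of complex IV. Ndufa1 was at 919, 800, 923, 946 and 1142 in LPD lines 1, 4, 6, 20 and 40 and at 806, 1433, 1005, 728 and 887 in NPD lines 8, 15, 21, 36 and 51. Ndufb11 was at 1567, 1561, 1473, 1396 and 1845 in the LPD lines and at 1307, 2309, 1663, 1248 and 1428 in the NPD lines. Cox7b was at 2601, 2468, 2322, 2642 and 2947 in the LPD lines and at 2468, 3753, 2874, 2071 and 2667 in the NPD lines. All 3 were highest in NPD line 15, with deviations of 0.64, 0.61 and 0.52, beside the median of 0.49 over the 334 X-linked genes of that line. Of the 79 autosomal members only 1 was highest in NPD line 15, and their median there was -0.01.

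Outside NPD line 15 the X-linked subunits followed the other members, with LPD line 40 highest and NPD line 36 lowest for all 3. Their log2 fold changes by diet were -0.01 ± 0.16, 0.01 ± 0.15 and -0.07 ± 0.14 for Ndufa1, Ndufb11 and Cox7b. Without NPD line 15 they were 0.14, 0.15 and 0.05. Thus 2 of them changed sign with that line, and none passed limma's test either way.

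**Figure D5:**
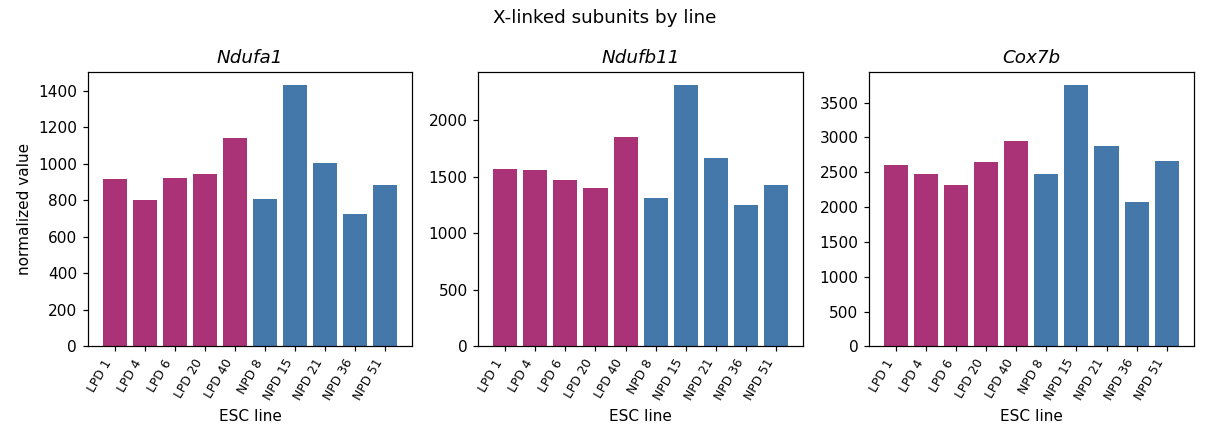
Normalized value (y axis, from 0) of the 3 X-linked subunits in each ESC line (x axis), with LPD lines in purple and NPD lines in blue. NPD line 15 has the tallest bar in each panel, at 1433 for Ndufa1, 2309 for Ndufb11 and 3753 for Cox7b.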

How the data were processed

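RNA was sequenced from 10 ESC lines, grouped by the diet in their titles. The authors trimmed adaptors with cutadapt, filtered reads and quantified transcripts of GRCm38 with Salmon. They deposited 1 table of gene values (unit: signal), which by its name the authors scaled with DESeq2. The step from transcripts to genes is not given in the sources used here. Whole reads could not be recovered for nearly all genes, so no count test was run.

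Values were taken as log2(value + 1), a scale on which changes of low genes look smaller. Genes with a mean of at least 10 went into a limma fit, tried on simulated data first (trend, no covariate; limma 3.58.1, R 4.3.3), and p was adjusted over 14354 genes. Exact permutation of the diets gave a second p for members named. Genes were placed with GENCODE M21, and copies of at least 95% identity over 80% of a transcript were sought with BLAST+ 2.17.0+. The value of 1 read came from low values of genes with 1 transcript, within a tolerance of 0.15.

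The members and lists were chosen with earlier results of these data known. Named were core subunits, paralogues, X-linked members, members at p under 0.05 or without overlap, the smallest p per complex and the extremes of spread. Cox5a, Ndufc1, Uqcr11, Atp5e and Atp5l were chosen after their values were seen. Alternatives were pseudocounts of 0.5 and 10, a minimum mean of 100 or none, equal totals for all lines, quantile normalization, array weights, a robust fit or no trend in limma, and each line left out. Chosen after seeing the data were leaving out LPD line 4 with NPD line 15, removing a length trend, and other transcript lengths for paralogues. Protein sequences were not used here, and 1 member is counted among the others but its own values are not reported here.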

Additional observations from a re-analysis of the deposited data

Results flagged for a closer look

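In groups of 5 lines of 1 diet, a value was picked out where its gap to the nearest other line exceeded 0.71 of the group's range. Of 72 groups examined, 2 values stood apart, and chance gives about 1 in 20 groups. Ndufs1 was at 3650 in LPD line 20, while the other LPD lines lay between 1859 and 2203, and without that line its log2 fold change went from 0.12 to -0.04. The median deviation of complex I was 0.32 in LPD line 40, against -0.06 to 0.05 in the other LPD lines.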

How the results depend on the processing

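No paired analysis was possible because the diets share no replicate numbers. No member had an adjusted p under 0.1, and none was lower in LPD lines at an unadjusted p under 0.05, in limma as reported or under any of the 21 alternatives. The number higher at an unadjusted p under 0.05 was 0 and became 1 in limma without a trend and without both LPD line 4 and NPD line 15, and it ran from 0 to 1 with each line left out. The median log2 fold change of the members stayed above 0 throughout, from 0.02 without LPD line 40 to 0.12 without NPD line 21. It was 0.05 with 61 members above 0 after rescaling to the same total, which moved the median of all genes to -0.03 with 42.2% above 0. After the length trend was removed it was 0.04 with 57 members above 0. Genes with an estimate near 0 changed sign. Rescaling to the same total gave -0.024 for Atp5b, -0.023 for Ndufb11 and -0.027 for Nrf1, quantile normalization -0.082, -0.011 and -0.022, and removal of the length trend -0.0084 for Atp5b and -0.031 for Ndufb11. Array weights gave 0.0033 for Sdha, -0.0012 for Atp5b, 0.024 for Ndufa1 and -0.062 for Nrf1. Without LPD line 4 and NPD line 15, Atp5b was at -0.00078, Ndufa1 at 0.20, Cox7b at 0.066 and Gabpa at -0.013. With each line left out, the range was -0.072 to 0.10 for Sdha, -0.044 to 0.064 for Atp5b, -0.042 to 0.20 for Ndufs1, -1.57 to 0.030 for Ndufa4l2, -0.027 to 0.23 for Cox6b2, -0.10 to 0.14 for Ndufa1, -0.067 to 0.15 for Ndufb11, -0.17 to 0.049 for Cox7b and -0.12 to 0.098 for Nrf1. Sign changes with these alternatives touched these 10 genes of the 22 examined singly, and no adjusted p of theirs passed the threshold. LPD line 4 holds 5810341 read equivalents, against 20529718 to 23045653 in the NPD lines, which limits members as low as Cox4i2, Cox7b2 and Cox8c.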

Other observations

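Of the chromosomes that carry members, chromosome 3 had a median deviation of 0.18 in NPD line 8 over 472 genes, below the limit of 0.2 set for a chromosome that stands apart, so it was chosen here after its value was seen. It carries Atp5f1, Ndufb5 and Ndufc1. Atp5f1 and Ndufb5 were above their median in NPD line 8, where only 3 of the 82 members were, and Ndufc1 was below it.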
